A study of Mus musculus with 8 samples.

Results

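Twist1, Twist2, Snai1, Snai2, Zeb1, Zeb2, Prrx1 and Prrx2 encode 8 transcription factors of mesenchymal cells, and their transcripts were followed in sorted lung mesenchyme after bleomycin injury. A gene was represented by the array row annotated to that gene alone, and by the brightest such row where there were several. Of the 8 genes 7 had exactly 1 row of this kind among 22180 genes tested. Zeb2 had none, because the 2 rows that carry its name are also annotated to Zeb2os or Mir5129, so no value is given for it.

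The bleomycin group held 4 arrays and the control group 4. All mice were C57BL/6J, 11 weeks old and kept free of specific pathogens. They received bleomycin, a DNA-damaging antibiotic used to provoke lung fibrosis, or phosphate-buffered saline (PBS) through the trachea. On day 10 the CD45-, CD31- and EpCAM- cells of whole lungs were sorted by flow cytometry, and their RNA was hybridised to 1-colour arrays. The sort is defined by the absence of 3 antigens, so it is meant to hold a mixture of fibroblasts, pericytes, smooth muscle and mesothelium. Transcripts of epithelium and endothelium were present as well. Nothing in the labels says that the 4 replicates of a group came from separate animals, and the p-values measure only the spread between these samples. In such a mixture, fewer cells of a type and less RNA per cell cannot be told apart. Levels are log2 intensities, on which a difference of 1 is a doubling, and levels of different genes are not compared.

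Twist proteins are basic helix-loop-helix factors that pair with E proteins and bind E-box sequences. Snail proteins (Snai1, and Snai2, also called Slug) and Zeb proteins are zinc finger repressors that also bind E-boxes and are best known for silencing E-cadherin when epithelial cells turn mesenchymal. Prrx1 and Prrx2 are paired-related homeodomain factors of embryonic mesenchyme and of fibroblasts. Fibroblasts are mesenchymal already, and there these factors are known for roles in migration, proliferation and matrix production.

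Snai1, Twist1 and both Prrx genes were higher in bleomycin samples. Snai1 and Prrx2 were about 2-fold higher, Prrx1 and Twist1 rose by less, and the paralogs Snai2 and Twist2 did not pass the test. Zeb1 was the one member with a lower mean, and it narrowly missed the threshold. In all, 4 of the 7 measured genes rose and 0 fell (limma, Benjamini-Hochberg adjusted p under 0.05 over all genes), where 9.12% of all tested genes rose and 8.24% fell. At an unadjusted limma p under 0.05 the same counts were 4 and 1, where 16.5% of all tested genes were higher and 14.1% lower. In 5 of the 7 the groups did not overlap, against 23.5% of all tested genes. The median log2 difference was 0.50 over the 7 genes and 0.03 over all tested genes. These genes were chosen with earlier results of the same data known, so their counts are no independent support.

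**Figure D1:**
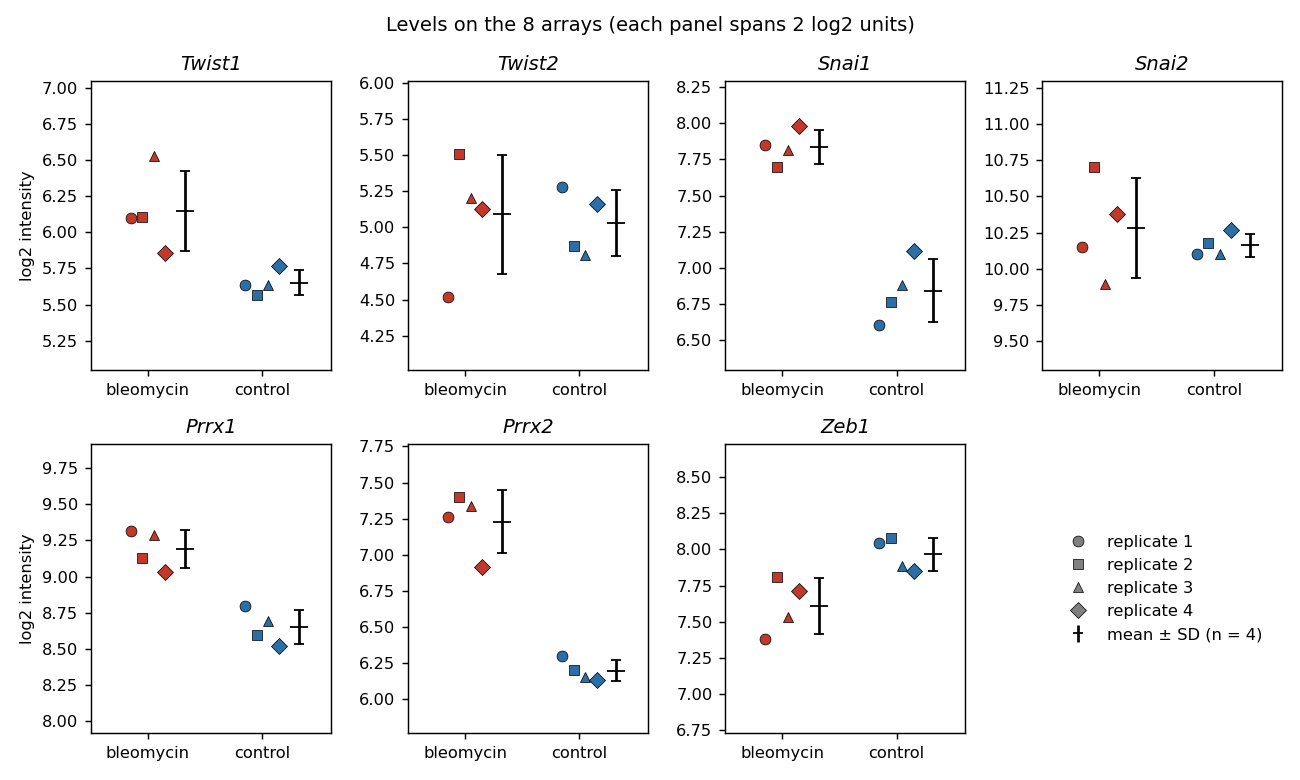
Log2 intensity of each gene on the 4 bleomycin (red) and 4 control (blue) arrays, with marker shapes for replicate numbers and black bars for mean ± SD. The groups are apart for Twist1, Snai1, Prrx1, Prrx2 and Zeb1 and overlap for Twist2 and Snai2.

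The promoter windows of the 4 genes that rose are shown because these were the members that passed the threshold. They come from RefSeq tables of GRCm38.p6 and run from 250 bases before the start site to 50 bases after it, 5′ to 3′ on the gene's strand. Capitals mark every match, on either strand, to 6 motifs. The E-box form bound by Snail and Zeb proteins was searched as CACCTG, and E-boxes of every form, which include it, were searched as CANNTG. The homeodomain core was searched as TAATTA and the TATA box as TATAAA. The AP-1 site was searched as TGANTCA and the hypoxia response core as ACGTG.
Snai1 (chr2:167537945-167538244, + strand): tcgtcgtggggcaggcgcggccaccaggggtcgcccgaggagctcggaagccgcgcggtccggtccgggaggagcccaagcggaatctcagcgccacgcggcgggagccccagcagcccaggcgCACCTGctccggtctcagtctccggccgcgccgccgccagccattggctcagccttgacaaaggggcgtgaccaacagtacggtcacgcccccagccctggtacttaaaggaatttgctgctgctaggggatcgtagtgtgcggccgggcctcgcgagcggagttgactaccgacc
Prrx2 (chr2:30845117-30845416, + strand): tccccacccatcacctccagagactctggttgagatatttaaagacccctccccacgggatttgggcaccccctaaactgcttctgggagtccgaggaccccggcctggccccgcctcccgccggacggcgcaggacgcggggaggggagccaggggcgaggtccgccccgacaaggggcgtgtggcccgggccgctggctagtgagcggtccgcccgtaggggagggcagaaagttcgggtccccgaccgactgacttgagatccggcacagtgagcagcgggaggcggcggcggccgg
Prrx1 (chr1:163313601-163313900, - strand): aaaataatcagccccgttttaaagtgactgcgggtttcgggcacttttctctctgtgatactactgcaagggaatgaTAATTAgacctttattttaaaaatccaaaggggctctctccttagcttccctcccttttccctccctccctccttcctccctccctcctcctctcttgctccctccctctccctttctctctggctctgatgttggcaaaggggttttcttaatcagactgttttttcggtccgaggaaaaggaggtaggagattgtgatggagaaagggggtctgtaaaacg
Twist1 (chr12:33957421-33957720, + strand): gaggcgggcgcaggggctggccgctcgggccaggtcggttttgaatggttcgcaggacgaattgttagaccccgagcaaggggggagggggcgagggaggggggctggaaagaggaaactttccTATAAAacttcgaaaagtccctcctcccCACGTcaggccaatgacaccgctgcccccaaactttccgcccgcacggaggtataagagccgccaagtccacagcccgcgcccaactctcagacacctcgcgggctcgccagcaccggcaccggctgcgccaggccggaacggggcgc

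Snai1 held 1 CACCTG, starting 126 bases before the start site, and no other E-box. Of all 32851 promoter windows in the table, 20.2% held CACCTG and 72.3% held CANNTG. No E-box match lay in the windows of Prrx1, Prrx2 or Twist1. The windows of Twist2, which did not pass, and of Zeb2, which had no value, held none either. Only 6 of the 8 genes had a window, so Snai2 and Zeb1 were not searched. Prrx1 held 1 TAATTA, which 5.29% of windows held. Twist1 held 1 TATAAA and 1 ACGTG, found in 13.6% and 19.6% of windows. AP-1 sites, present in 7.81% of windows, were in none of the 4. A match describes the letters of the window and does not show that a factor binds there.

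Snai1, the Snail factor known as an early target of TGF-beta in fibroblasts and epithelium, had levels of 7.85, 7.69, 7.81 and 7.98 on bleomycin arrays 1 to 4. On control arrays 1 to 4 its levels were 6.60, 6.77, 6.88 and 7.12. The lowest bleomycin value stood 0.58 above the highest control value, and the bleomycin arrays lay closer to each other than the control arrays did. The mean was 7.84 ± 0.12 in bleomycin and 6.84 ± 0.22 in control samples (SD, n = 4 each). Snai1 therefore differed by 0.99 ± 0.12 in log2 units (difference ± SE), which is 1.99-fold with a 95% interval of 1.66 to 2.39 (limma adjusted p = 0.000406). The call held in each of the 19 alternative fits, with log2 differences between 0.84 and 1.09.

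Snai2, the second Snail factor, is known to be abundant in fibroblasts and neural crest derivatives. Its bleomycin levels were 10.15, 10.70, 9.89 and 10.38, and its control levels 10.10, 10.18, 10.10 and 10.27. Bleomycin replicate 2 was the highest of all 8 arrays and bleomycin replicate 3 the lowest, so the bleomycin values enclosed all the control values. The difference of 0.12 ± 0.15 did not pass (limma adjusted p = 0.649), and its 95% interval ran from -0.22 to 0.46, so a rise of up to 1.37-fold lies within it.

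Both Snail genes were then set against each other within each array, which asks whether they changed equally and says nothing of their relative levels. In this and the other pairs the genes are read by different rows, and whether those rows respond alike was not tested. The log2 difference Snai1 minus Snai2 was -2.45 ± 0.40 in bleomycin and -3.32 ± 0.16 in control samples (SD, n = 4 each), without overlap. Snai1 thus changed by 0.87 more than Snai2 (exact two-sided permutation test over 70 assignments, p = 0.0286, the smallest this design allows, and 0.0429 adjusted over 3 pairs). Leaving out any 1 control array gave an exact p = 0.0571 with differences of 0.81 to 0.93. Leaving out any 1 bleomycin array gave an exact p = 0.0286, the smallest that the remaining arrays allow.

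Prrx2, a homeodomain factor known from fetal dermis and wound fibroblasts, showed the largest difference among the 7 genes. Levels on bleomycin arrays 1 to 4 were 7.26, 7.40, 7.34 and 6.92, against 6.30, 6.21, 6.16 and 6.13 on the control arrays. The control arrays lay within a narrow band, and bleomycin replicate 4 was the bleomycin array nearest to them, still 0.62 above the highest control. Means were 7.23 ± 0.22 in bleomycin and 6.20 ± 0.07 in control samples (SD, n = 4 each), a difference of 1.03 ± 0.11 (2.04-fold, 95% interval 1.71 to 2.43, limma adjusted p = 0.000261). All 19 alternative fits kept this call, with differences between 0.97 and 1.14.

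Prrx1, its paralog and a regulator of limb and craniofacial mesenchyme in the mouse, rose by less. Bleomycin arrays 1 to 4 had levels of 9.32, 9.13, 9.29 and 9.03 and control arrays 8.79, 8.60, 8.69 and 8.52. Every bleomycin array was above every control array, with a gap of 0.24. The difference was 0.54 ± 0.10 (1.45-fold, 95% interval 1.25 to 1.70, limma adjusted p = 0.00437). Replicates 1 and 2 alone gave 0.53 and replicates 3 and 4 alone 0.56, and with 2 arrays a group neither passed (adjusted p = 0.0923 and 0.103).

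Within arrays, Prrx1 minus Prrx2 was 1.96 ± 0.17 in bleomycin and 2.45 ± 0.07 in control samples (SD, n = 4 each), again without overlap. Prrx1 rose by 0.49 log2 units less than Prrx2, written as a difference of -0.49 (exact two-sided permutation test, p = 0.0286, adjusted 0.0429). When any 1 array was left out the exact p was 0.0286, which is also the smallest that the remaining arrays allow. The differences lay between -0.54 and -0.41.

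**Figure D2:**
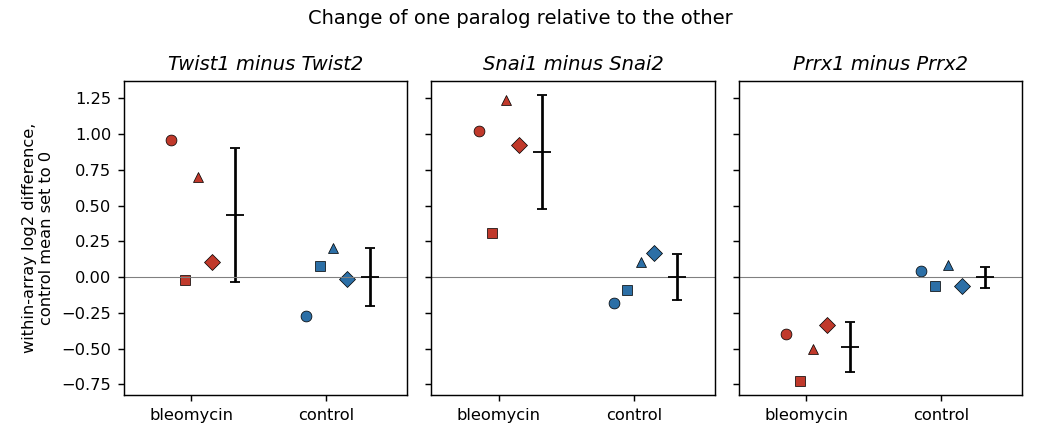
Within-array log2 difference between paralogs, with the control mean set to 0, for bleomycin (red) and control (blue) arrays. Bars are mean ± SD, n = 4. Snai1 rose relative to Snai2 by 0.87 and Prrx1 lagged Prrx2 by 0.49, both without overlap, while the bleomycin arrays of the Twist pair reach down among the controls.

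Twist1, needed for mesoderm and cranial mesenchyme in the mouse, had levels of 6.10, 6.11, 6.53 and 5.86 on bleomycin arrays 1 to 4 and of 5.63, 5.57, 5.64 and 5.77 on control arrays 1 to 4. Bleomycin replicate 3 stood above the other 3 bleomycin arrays, and bleomycin replicate 4 was only 0.09 above the highest control. Its means of 6.15 ± 0.28 and 5.65 ± 0.08 in bleomycin and control samples (SD, n = 4 each) differed by 0.50 ± 0.13 (1.41-fold, 95% interval 1.15 to 1.73, limma adjusted p = 0.0274). This call was the least secure of the 4 rises. It was lost without bleomycin replicate 1 (adjusted p = 0.0551), bleomycin replicate 2 (0.0502), control replicate 1 (0.0642), control replicate 2 (0.0698) or control replicate 3 (0.0651), while the difference stayed between 0.47 and 0.51 in these 5 fits. Over all 8 such fits it lay between 0.37 and 0.59.

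Twist2, also called Dermo1 and known from dermal and osteoblast precursors, had bleomycin levels of 4.52, 5.50, 5.20 and 5.13 and control levels of 5.28, 4.87, 4.81 and 5.16. The highest and the lowest of the 8 values were both on bleomycin arrays. Its means of 5.09 in bleomycin and 5.03 in control samples lay below the array medians of tested genes, 5.47 to 5.54. The filter on dim genes therefore left it out. Rows without a gene had medians of 4.20 to 4.52 and detection calls were not used, so Twist2 may be poorly detected. The difference was 0.06 ± 0.19 (limma adjusted p = 0.876), with a 95% interval from -0.37 to 0.49. That interval reaches close to the size of the Twist1 difference, and a test of the pair did not separate them. Twist1 minus Twist2 was 1.06 ± 0.47 in bleomycin and 0.62 ± 0.20 in control samples, a difference of 0.44 (exact two-sided permutation test, p = 0.2, adjusted 0.2).

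Zeb1, a zinc finger and homeodomain repressor that is bound into a known feedback loop with miR-200, had levels of 7.38, 7.81, 7.53 and 7.71 on bleomycin arrays 1 to 4. Control arrays 1 to 4 had 8.05, 8.08, 7.89 and 7.85. Every bleomycin array was below every control array, with a gap of 0.04. Zeb1 averaged 7.61 ± 0.19 in bleomycin and 7.97 ± 0.12 in control samples (SD, n = 4 each), a log2 difference of -0.36 ± 0.11 (0.78-fold, 95% interval 0.66 to 0.93) that did not pass after adjustment over all genes (limma, unadjusted p = 0.00954, adjusted p = 0.0531). It passed in 5 of 19 alternative fits: with each array centred on its median, without bleomycin replicate 2, among the brighter 50% of genes, with a trended and robust variance prior, and with array weights (adjusted p between 0.0235 and 0.0472). Without control replicates 1 and 2 it differed by -0.26 (adjusted p = 0.304). These 2 control arrays also had the highest means of the alveolar epithelium markers (9.02 and 9.11, against 8.25 and 8.19 on controls 3 and 4) and of the endothelial markers (8.87 and 9.05, against 8.07 and 7.95), whose part in the Zeb1 values was not tested.

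**Figure D3:**
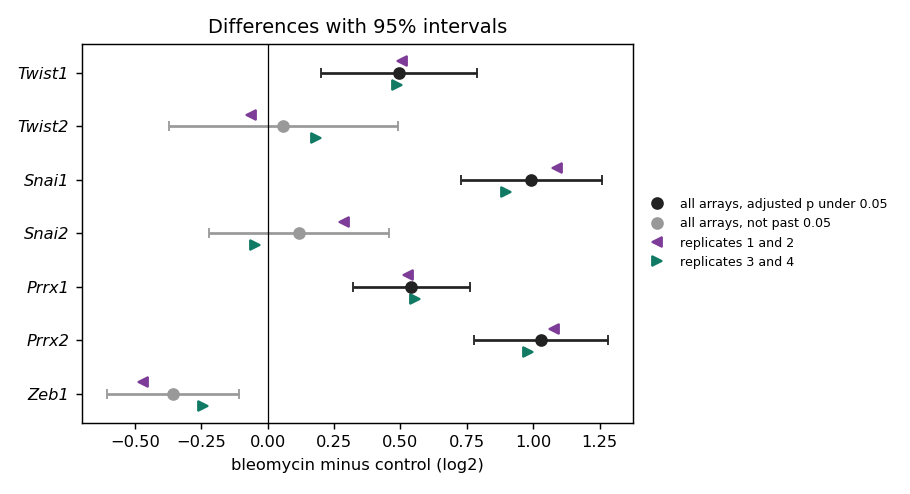
Bleomycin minus control log2 difference with its 95% interval (circles, dark where the limma adjusted p is under 0.05), and the same difference in replicates 1 and 2 and in replicates 3 and 4. Both pairs of replicates give positive values for Twist1, Snai1, Prrx1 and Prrx2 and negative values for Zeb1, whereas those of Twist2 and Snai2 change sign.

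The miR-200 family represses Zeb1 and Zeb2 in epithelial cells, and its mature forms fall into 2 seed groups. They are shown because Zeb1 was the one gene with a lower mean. Capitals mark the seed, bases 2 to 8, in the RefSeq sequences.
mmu-miR-200a-3p: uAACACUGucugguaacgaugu
mmu-miR-141-3p: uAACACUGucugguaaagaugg
mmu-miR-200b-3p: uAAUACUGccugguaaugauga
mmu-miR-200c-3p: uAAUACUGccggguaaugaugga
The array rows of these loci report precursor RNA and not the mature miRNA. Log2 differences were -0.15 for Mir200a, -0.08 for Mir141, 0.07 for Mir200b and 0.18 for Mir200c, and none passed (limma adjusted p between 0.372 and 0.793). Group means of Mir141 and Mir200c were under 3, while rows without a gene had medians of 4.20 to 4.35 on bleomycin and 4.44 to 4.52 on control arrays and detection calls were not used. Of 17 microRNA loci listed with these factors 11 were measured, and Mir10b was the only one of them that passed (adjusted p = 0.00273). Mir10b is known as a Twist1 target in human breast cancer cells. Its mean levels of 2.22 in bleomycin and 1.71 in control samples also lay below those medians, so no size is given for it.

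Genes that work with these factors changed in part. Their lists, like those that follow, were chosen with earlier results of these samples known, so no count is independent support. Of 13 helix-loop-helix partners, relatives and inhibitors 4 rose and 2 fell, with a median of 0.03. Scx, a tendon factor, rose by 1.32 ± 0.21, Id4, which blocks helix-loop-helix binding, by 0.75 ± 0.16, and Tcf3, an E protein that pairs with Twist, by 0.41 ± 0.09. Id1, another inhibitor, differed by -0.53 ± 0.09 and Tcf21, the factor of alveolar fibroblasts, by -0.64 ± 0.19. Across all genes 17.4% passed in either direction. Without control replicates 1 and 2 this list had 2 rises and 1 fall, and Tcf21 and Id4 no longer passed (adjusted p = 0.0720 and 0.101).

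Among 19 corepressors and chromatin enzymes tied to Snail, Zeb or Twist proteins 5 rose and 0 fell (8 and 0 at an unadjusted limma p under 0.05). Over all tested genes 9.12% rose and 8.24% fell, and unadjusted 16.5% were higher and 14.1% lower. Nsd2, a histone methyltransferase, rose by 0.65 ± 0.10, the LIM protein Ajuba, which bridges Snail to its corepressors, by 0.58 ± 0.16, and the DNA methyltransferase Dnmt1 by 0.56 ± 0.11. Without control replicates 1 and 2 the rises numbered 3 and Ajuba did not pass (adjusted p = 0.143). Of 15 enzymes and ubiquitin ligase subunits that set the turnover of Snail proteins, 1 passed, against 17.4% of all tested genes. Fbxo11, an F-box protein that targets Snail for degradation in human cells, differed by -0.30 ± 0.08 (adjusted p = 0.0238, and 0.159 without control replicates 1 and 2).

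Of 17 other factors tied to the epithelial to mesenchymal transition 5 rose and 0 fell (7 and 1 at an unadjusted limma p under 0.05). For this list and the next, 9.12% of all tested genes rose and 8.24% fell, or 16.5% and 14.1% unadjusted. Runx1, a Runt factor, rose by 2.17 ± 0.13, Sox9 by 1.30 ± 0.22 and the cell cycle factor Foxm1 by 1.28 ± 0.12. Without control replicates 1 and 2 this list had 5 rises and 1 fall. The fall, named after its values were seen, was that of the T-box factor Tbx2, at -0.60 (limma adjusted p = 0.026), against -0.28 with all arrays (adjusted p = 0.304). Among 24 ligands, receptors and signal transducers that induce these factors elsewhere 9 rose and 2 fell. Tgfb1, the ligand, rose by 1.34 ± 0.13, Wnt5a by 0.80 ± 0.15 and the Wnt effector Lef1 by 0.65 ± 0.15. The hepatocyte growth factor receptor Met differed by -0.70 ± 0.19 and Notch1 by -0.33 ± 0.10. Without control replicates 1 and 2 these 24 genes had 5 rises and 0 falls, and Met and Notch1 did not pass (adjusted p = 0.179 and 0.19).

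Genes of the mesenchymal state mostly rose, 19 of 25 with 1 fall and a median of 0.83. Among all tested genes 9.12% rose and 8.24% fell. Tnc, a matrix glycoprotein linked to Twist1 and Prrx1 in cultured fibroblasts, had a mean level of 11.51 ± 0.19 in bleomycin and 8.17 ± 0.16 in control samples (SD, n = 4 each), and rose by 3.35 ± 0.12. Acta2, smooth muscle actin, rose by 1.92 ± 0.16 and the matrix protein Postn by 1.86 ± 0.29, while the fibroblast receptor Pdgfra differed by -0.43 ± 0.08 (limma adjusted p = 0.00558). The list was chosen with earlier results of these samples known and is no independent support.

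Epithelial genes known as targets of Snail and Zeb repression were lower in part, 7 of 22, with 1 rise. For the lists of this paragraph, 8.24% of all tested genes fell and 9.12% rose. Mal2, a membrane traffic protein, differed by -1.67 ± 0.31, the junction protein Ocln by -1.25 ± 0.23 and E-cadherin, Cdh1, by -0.96 ± 0.17. P-cadherin, Cdh3, rose by 0.62 ± 0.18, with overlapping groups. Of 15 factors that guard the epithelial state 2 fell, Nkx2-1 and Ehf, and Klf5 rose by 0.80 with overlapping groups. Nkx2-1 differed by -0.92. Ehf averaged 3.77 in bleomycin and 4.32 in control samples, below the medians of rows without a gene on the same arrays, so no size is given for it, and without control replicates 1 and 2 it did not pass (limma adjusted p = 0.0556). The gate is meant to exclude epithelium, but epithelial transcripts remained. Sftpc, an alveolar marker, had a mean level of 9.76 in bleomycin and 12.08 in control samples. Of 15 alveolar epithelium markers 14 fell in the same samples. Their mean level was 6.62 to 7.43 on bleomycin and 8.19 to 9.11 on control arrays, and its part in the lower Cdh1, Ocln and Mal2 was not tested. Without control replicates 1 and 2, where the epithelial markers were highest, 3 of the 22 targets fell and 0 rose. The 3 were Cdh1 at -0.66, Ocln at -0.85 and Mal2 at -1.14 (limma adjusted p = 0.0256, 0.0340 and 0.0414).

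**Figure D4:**
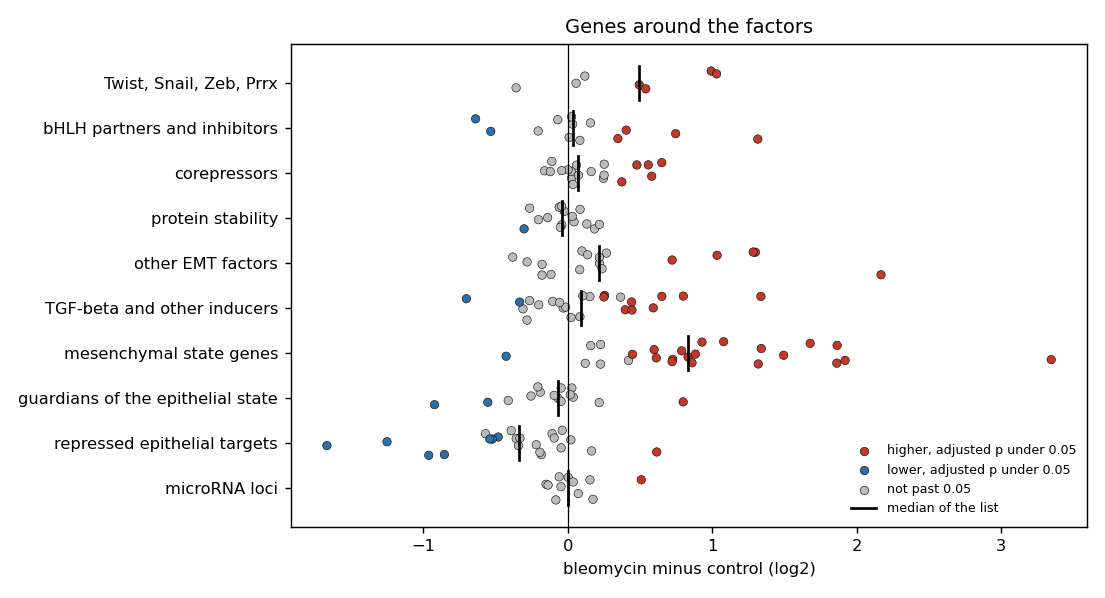
Bleomycin minus control log2 difference of each gene (points) in the lists around the factors, red where higher and blue where lower with limma adjusted p under 0.05, grey otherwise, and the list median as a bar. The mesenchymal genes have a median of 0.83 and the epithelial targets one of -0.33.

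The labelled cell type was checked against its markers. Col1a1, Col1a2, Pdgfra, Pdgfrb and Dcn all had mean levels above 10 in both groups, while Lum, Fgf10, Ces1d and Dpp4 were below 10 in both. Markers of cells outside the gate were also bright. Control means were 12.08 for Sftpc, 11.68 for Scgb1a1 and 10.69 for Cdh5, and bleomycin means were 9.76, 9.36 and 9.66. Bright fibroblast genes therefore do not show that the samples were pure. Of 14 fibroblast markers 5 rose and 7 fell. For these and the marker lists that follow, 9.12% of all tested genes rose and 8.24% fell. Of the gate genes, Ptprc (CD45) had a mean level of 6.22 in bleomycin and 6.69 in control samples, Pecam1 (CD31) one of 8.55 in bleomycin and 9.87 in control samples and Epcam one of 4.43 in bleomycin and 4.99 in control samples, where rows without a gene had medians of 4.20 to 4.35 on bleomycin and 4.44 to 4.52 on control arrays. Macrophages are known to express Zeb2, and 9 of 15 macrophage markers were higher, led by C1qb. Their mean level was 6.34 to 6.67 on bleomycin and 5.92 to 6.13 on control arrays, and no marker was listed at 0. Of 13 further leukocyte markers 0 rose and 1 fell, of 13 pericyte and smooth muscle markers 6 rose and 2 fell, of 14 endothelial markers 0 rose and 9 fell, and of 9 mesothelial markers 0 rose and 1 fell. Among 8 airway epithelium markers 3 fell, and among 6 Schwann cell and neural markers 2 rose. Whether these cells contributed to Snai1, Prrx1, Prrx2, Twist1 or Zeb1 was not tested.

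The genes most like each factor over the 8 arrays were sought among 10501 brighter, named genes. Over these 8 arrays r includes the difference between the groups. Prrx2 was followed most closely by Inhba, an activin subunit (Pearson r = 0.997), and Has2, a hyaluronan synthase (r = 0.995). Inhba had mean levels of 8.35 in bleomycin and 5.10 in control samples and Has2 of 9.74 in bleomycin and 7.20 in control samples. Nearest to Snai1 were Stat3 (r = 0.990) and Tbc1d20 (r = 0.988), and nearest to Prrx1 were Tnfrsf26 and Gabpb1 (r = 0.993 and 0.992). Acot13 and Peg10 were nearest to Twist1 (r = 0.975 and 0.974) and Zfand6 and Phactr2 to Zeb1 (r = 0.992 and 0.991). For the genes whose groups overlapped the nearest were Lrp3 and Lipa for Snai2 (r = 0.975 and 0.958) and Rprd1a and Zfp933 for Twist2 (r = 0.941 and 0.917). With 8 arrays and 10501 candidates, values of this size say nothing of shared control.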

How the data were processed

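RNA of sorted lung mesenchymal cells was measured on 8 arrays. Per the labels' protocols, biotinylated cRNA was made from 100 ng of total RNA. The deposited values are 1 number per row and array, from 0.24 to 13.58, and this range is the ground for reading them as log2 intensities. How the authors corrected background, summarised and normalized is not given in the sources used. Arrays give no read depth, and their number limits the precision.

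Of 41345 rows, 23521 had 1 gene, 1814 several and 16010 none in the probe annotation. The brightest row stood for each of 22180 genes. Values were used as deposited, since array medians over these genes ranged over 0.07. That range followed the groups, with medians of 5.52 to 5.54 on bleomycin and 5.47 to 5.49 on control arrays. Rows without a gene shifted the other way, with medians of 4.20 to 4.35 on bleomycin and 4.44 to 4.52 on control arrays. The Zeb1 call and the balance of rises and falls moved with median centring, as given below. Groups came from the titles, and limma 3.58.1 (R 4.3.3, lmFit followed by eBayes) tested their difference, two-sided, Benjamini-Hochberg adjusted over all genes, threshold 0.05. Paralog pairs were compared by exact permutation. In simulated data with 22180 genes 52.2% of the changes made at 1.5-fold were found, 94.0% at 2-fold and 100% at 4-fold. Of the calls 5.75% were false. The simulation changed far fewer genes than passed in the real samples and drew independent noise, so its rates need not hold for them.

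The 8 genes and all lists were chosen with earlier results of these data known. The lists were written from general knowledge. From each list up to 3 passing genes with the largest change in each direction are named. For likeness, the 2 genes with the highest r were named among genes brighter than the median, without predicted models and small RNA loci. Alternatives were quantile normalization, median centring, replicate blocks, replicates 1 and 2 or 3 and 4 alone and left-out arrays. Further ones were a filter on dim genes, a trended robust prior, array weights, the mean of a gene's rows and a threshold of 0.01. Figures were drawn with matplotlib 3.10.9.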

Additional observations from a re-analysis of the deposited data

How the results depend on the processing

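Snai1 and Prrx2 kept their direction and call in all 19 alternative fits, and Prrx1 in 17. Twist1 kept its direction in 19 and its call in 11. In 1 of the 19, the mean of a gene's rows, no member's difference could change, since each had 1 row. With replicates 1 and 2 alone Twist1 differed by 0.50 and Prrx1 by 0.53, with replicates 3 and 4 alone by 0.49 and 0.56, and neither passed. Twist1 also lost its call without control replicates 1 and 2 together, at 0.44 (adjusted p = 0.165). Leaving out 1 array gave 0.37 to 0.59 for Twist1, -0.42 to -0.28 for Zeb1 and 0.75 to 1.06 for Snai1 minus Snai2. Zeb1 gained a call at -0.41 with median centring, at -0.36 among brighter genes or with the trended robust prior, and at -0.35 with array weights. The count of genes that rose was 2 of 7 in either pair of replicates and the count that fell was 1 with median centring, among brighter genes, with the trended robust prior and with array weights. It was 0 to 1 when 1 array was left out. Twist2 and Snai2 passed in no alternative, and their small differences changed sign in 3 of 18 and 2 of 19. Among all genes 2022 rose and 1828 fell. A threshold of 0.01 gave 1079 and 879, replicates 1 and 2 alone 838 and 833, replicates 3 and 4 alone 503 and 220, and leaving out control replicates 1 and 2 gave 1205 and 992. Median centring turned the balance to 1623 and 2314. Same-numbered replicates of the groups were not taken as pairs, since the correlations of their deviations were 0.13, 0.06, 0.11 and 0.06, not all over 0.1. Across the groups these correlations were 0.06 to 0.13 within replicates 1 and 2 and within 3 and 4, and -0.14 to -0.07 between these sets. With the replicate number as a block 4 of the 7 genes rose and 0 fell, 1937 and 1838 over all genes, and Twist1 passed narrowly (adjusted p = 0.0481). A block of these sets in place of the number again gave 4 rises and 0 falls, 2293 and 2168 over all genes, and Twist1 passed (limma adjusted p = 0.0312). The cause of these shifts was not tested, beyond the fewer arrays or genes that some fits hold.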

Other observations

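The bleomycin samples varied more among themselves than the control samples for 6 of the 7 genes, Snai1 being the exception. The SD over bleomycin arrays was 4.33 times that over control arrays for Snai2, 3.28 times for Twist1 and 2.95 times for Prrx2. Over all tested genes 56.3% had the larger SD in bleomycin samples, with median SDs of 0.163 in bleomycin and 0.146 in control samples. Bleomycin replicate 2 was highest for Snai2, Twist2, Zeb1 and Prrx2 among the bleomycin arrays, replicate 3 for Twist1, replicate 4 for Snai1 and replicate 1 for Prrx1. With 4 arrays a group the spread itself was not tested.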
